A study of Mus musculus with 15 samples.

Results

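The effect of the amyloid transgenes on thalamic gene expression was estimated over both Lilrb4a genotypes at once. The comparison took all 15 libraries of the series: 9 from mice with the 5xFAD transgenes (5EL, n = 5; 5ELKO, n = 4) and 6 from mice without them (EL, n = 3; ELKO, n = 3). By label, every mouse carried human APOE4 knocked in at the Apoe locus and was 4.5 months old; mouse Apoe in ELKO replicate 1 went against that label (below). The EL and 5EL mice kept Lilrb4a, which encodes an inhibitory receptor of myeloid cells, and the ELKO and 5ELKO mice lacked it (Lilrb4a-/-). Their genotypes are thus APOE4+/+ (EL), APOE4+/+/Lilrb4a-/- (ELKO), 5xFAD/APOE4+/+/Lilrb4a+/+ (5EL) and 5xFAD/APOE4+/+/Lilrb4a-/- (5ELKO). The 5xFAD transgenes, which include mutant human APP, are driven by the neuronal Thy1 promoter, and no group labelled without APOE4 entered the comparison. The values are log2 expression levels from bulk RNA-seq of the right thalamus, and 15804 of the 29659 genes in the files passed a filter on low values (at least 3.32, the log2 of 10, in at least 3 libraries). A pooled difference below is the 5xFAD minus non-transgenic difference from a linear model (limma) that held amyloid and Lilrb4a genotype as separate factors with no interaction. The 5EL minus EL and 5ELKO minus ELKO differences, which share no library, are given beside it.

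Plaques in the 5xFAD brain are surrounded by microglia and astrocytes with altered expression. Microglia at plaques take on the disease-associated (DAM) program, in which the lipid-sensing receptor Trem2 signals through its adaptor Tyrobp, and genes for lysosomal proteases, phagocytic receptors and the integrin Itgax are switched on. Astrocytes near plaques raise the filament protein Gfap and the protease inhibitor Serpina3n, and glia of several types make complement proteins. The lineage factor PU.1, encoded by Spi1, is needed for microglia to form and binds near many of these genes.

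The promoters of microglial genes that were higher with 5xFAD are shown first. Of the 26 genes on the glial lists described below that were higher at the nominal threshold, 20 were matched by symbol in the RefSeq promoter table (GRCm38.p6). In the 250 bases before the start, 5 of these 20 held the PU.1 core AGGAAGT on either strand, a share of 25.0%. The same letters were in 8.01% of the 11469 tested genes that matched the table and in 8.8% of all 27025 promoters. The share among glial-list genes that were not past the nominal threshold was not counted. The comparison therefore does not tell a 5xFAD difference from membership of the lists. The windows of these 5 genes follow, 5′ to 3′ on the gene's own strand, and capitals mark the PU.1 core (ACTTCCT where it lies on the opposite strand).

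Cst7, chr2:150570165-150570414, plus strand: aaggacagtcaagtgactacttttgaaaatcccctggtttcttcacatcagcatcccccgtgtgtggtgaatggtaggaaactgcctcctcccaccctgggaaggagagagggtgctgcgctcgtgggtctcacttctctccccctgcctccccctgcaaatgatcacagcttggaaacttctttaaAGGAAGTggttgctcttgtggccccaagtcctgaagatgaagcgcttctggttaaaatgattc
Fcrls, chr3:87263525-87263774, minus strand: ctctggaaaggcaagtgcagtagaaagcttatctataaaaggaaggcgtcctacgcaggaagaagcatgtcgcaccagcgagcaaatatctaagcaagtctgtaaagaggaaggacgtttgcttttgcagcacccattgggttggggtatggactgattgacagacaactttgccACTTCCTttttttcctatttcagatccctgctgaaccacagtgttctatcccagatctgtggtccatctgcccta
Ccl6, chr11:83593088-83593337, minus strand: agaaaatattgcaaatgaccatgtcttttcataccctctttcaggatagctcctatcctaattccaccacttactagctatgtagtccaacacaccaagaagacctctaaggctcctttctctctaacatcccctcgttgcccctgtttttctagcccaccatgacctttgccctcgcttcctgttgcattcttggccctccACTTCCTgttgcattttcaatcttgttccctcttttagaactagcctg
Lyz2, chr10:117282273-117282522, minus strand: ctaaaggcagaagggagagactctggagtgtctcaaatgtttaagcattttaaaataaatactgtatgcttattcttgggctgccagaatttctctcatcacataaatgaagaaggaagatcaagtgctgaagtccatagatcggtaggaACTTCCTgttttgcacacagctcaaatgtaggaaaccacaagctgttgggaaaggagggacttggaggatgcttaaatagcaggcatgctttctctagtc
C1qc, chr4:136892915-136893164, minus strand: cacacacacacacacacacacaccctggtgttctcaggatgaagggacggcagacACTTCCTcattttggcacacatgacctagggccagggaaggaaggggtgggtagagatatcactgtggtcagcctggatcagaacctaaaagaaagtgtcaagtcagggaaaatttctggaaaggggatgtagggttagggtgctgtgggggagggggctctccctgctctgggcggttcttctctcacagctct

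Cst7 and Lyz2 encode a cysteine protease inhibitor and lysozyme, Fcrls an Fc-receptor-like scavenger protein of resident microglia, Ccl6 a chemokine, and C1qc a chain of complement C1q. The core began at -63 in Cst7, -75 in Fcrls, -48 in Ccl6, -100 in Lyz2 and -195 in C1qc, counted from the annotated start. The other motifs searched did not overlap these matches. The core of the interferon response element, searched on both strands like the others, was in 1 of the 20 promoters (5.0%, against 3.0% of the matched tested genes and 3.46% of all promoters), and the CLEAR core TCACGTGA of lysosomal genes was in 1 (5.0%, against 1.62% of the matched tested genes and 0.907% of all promoters). The STAT core TTCCNGGAA was in 0 of the 20 (1.2% of the matched tested genes and 1.09% of all promoters). The promoters that held these 2 elements belong to the lysosomal proteases Ctsd, with the CLEAR core in capitals, and Ctss, with the interferon element in capitals.

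Ctsd, chr7:142387828-142388077, minus strand: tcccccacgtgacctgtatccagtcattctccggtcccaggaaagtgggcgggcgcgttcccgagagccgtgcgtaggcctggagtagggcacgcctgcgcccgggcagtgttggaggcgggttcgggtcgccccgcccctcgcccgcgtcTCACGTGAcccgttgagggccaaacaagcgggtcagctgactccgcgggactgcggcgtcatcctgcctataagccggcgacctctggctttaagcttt
Ctss, chr3:95526536-95526785, plus strand: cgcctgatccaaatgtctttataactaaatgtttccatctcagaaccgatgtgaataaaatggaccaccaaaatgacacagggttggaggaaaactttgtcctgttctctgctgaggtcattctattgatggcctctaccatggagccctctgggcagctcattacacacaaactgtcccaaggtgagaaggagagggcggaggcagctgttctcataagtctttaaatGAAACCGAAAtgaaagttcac

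Over all 108 genes that were higher at the nominal threshold, 79 were matched, and 6 of them held the PU.1 core (7.59%), a share near that of all promoters. Of the 22 among them at nominal p in both Lilrb4a genotypes, 19 were matched and 2 held it (10.5%). These matches describe letters in a window and not bound sites.

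Before the effect itself, the libraries were checked against their labels. Lilrb4a, the targeted gene, lay under the filter: it was 2.33 in all 7 knockout libraries, 2.34, 2.42 and 2.38 in the EL libraries, and 2.66, 2.40, 2.48, 2.63 and 2.48 in the 5EL libraries. All 8 libraries with Lilrb4a were thus above the knockout libraries, by small amounts. The transgenes are human sequences and the counted genes are mouse genes, so App is no direct check of the 5xFAD labels. App differed by 0.01 ± 0.05 (SE) and Thy1 by -0.05 ± 0.05. Mouse Apoe, replaced by APOE4 in every genotype, lay between 5.92 and 6.37 in 14 libraries and at 10.90 in ELKO replicate 1, a value that goes against its label. Xist was at 0.17 to 0.31 and the Y-linked Ddx3y at 10.3 to 10.7 in all 15 libraries. EL replicate 3 and ELKO replicate 3 stood apart in inhibitory neuron genes (below) and were lowest of all in the means of the habenula list (7.08 and 7.38 against 7.50 to 9.29) and the ependymal list (5.95 and 5.97 against 6.10 to 6.92). EL replicate 3 was also highest in the erythroid list (8.66 against 7.60 to 8.15). 5EL replicate 1 and ELKO replicate 2 stood apart in choroid plexus genes, with list means of 7.87 and 8.26 against 5.90 to 6.36 in the other 13. Results that rest on these libraries are given with and without them.

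No gene passed an adjusted p of 0.05 for the pooled effect (0% of 15804, limma with Benjamini-Hochberg adjustment), and the smallest adjusted p was 0.497. At an unadjusted p under 0.05, 606 genes were higher with 5xFAD (3.83% of the genes tested) and 535 were lower (3.39%). The study's own threshold, a nominal p under 0.05 with a fold over 1.2 (0.263 in log2), held 108 higher genes (0.683%) and 13 lower genes (0.0823%). All 121 had the same direction in both Lilrb4a genotypes, as had 9876 of all tested genes (62.5%). The pooled fit averages over the genotypes, so this agreement of sign is in part built into the choice of the 121. The lists of DAM, plaque-induced, complement, Fc receptor, lysosomal, homeostatic microglia and reactive astrocyte genes had 155 tested members, and 26 of them were among the 108 (16.8%, against 0.683% of all genes). The other 82 included genes of inhibitory neurons, described further on. These 7 lists were put together as glial lists after the values were seen.

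**Figure D1:**
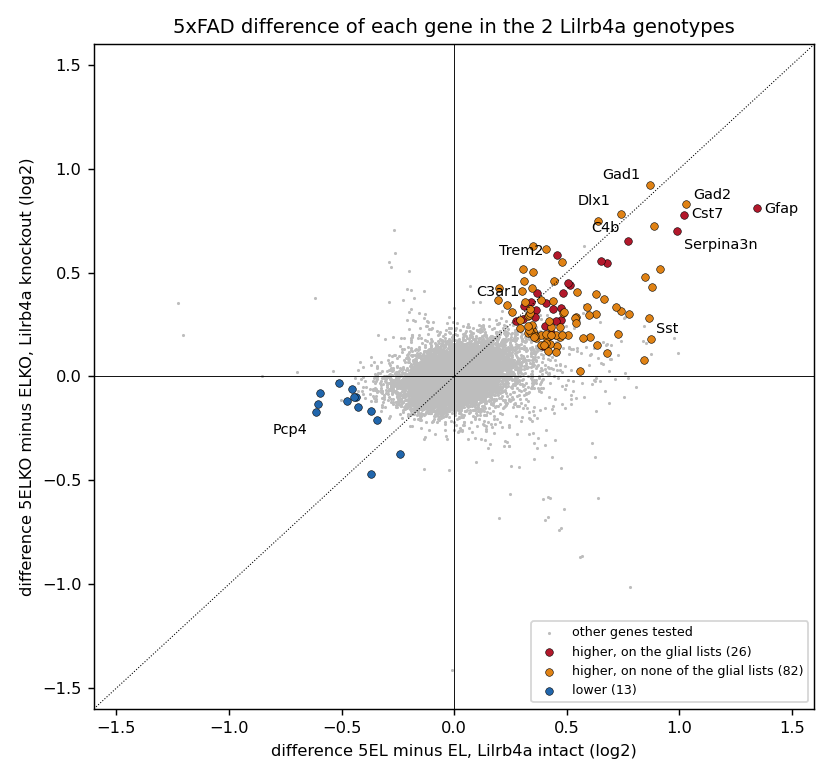
Each point is a gene, placed by its 5EL minus EL difference (x axis, log2) and its 5ELKO minus ELKO difference (y axis, log2); red, orange and blue points are the 121 genes past the nominal threshold, grey points the other genes tested, and the dotted line marks equal differences. The 108 higher genes lie in the upper right and the 13 lower genes in the lower left, with more points under the line than over it among the higher genes; 2 genes lie outside the plotted range.

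The gene with the smallest p was C4b, complement component 4 (chr17:34728380-34743882, GRCm38, minus strand), which differs little in sequence from its neighbor C4a, so that reads could be split between them. C4b was 8.52, 8.39, 8.08, 8.58 and 8.42 in the 5EL libraries and 7.94, 7.69 and 7.25 in the EL libraries. In the 5ELKO libraries it was 8.69, 8.04, 8.39 and 8.82, and in the ELKO libraries 8.07, 7.94 and 7.50. The 5EL and EL values did not overlap, and among the knockouts only 5ELKO replicate 2 lay below ELKO replicate 1. The pooled difference was 0.71 ± 0.13 (SE), with an adjusted p of 0.497 and a nominal p of 5.09e-05 (limma). The difference was 0.77 ± 0.19 with Lilrb4a and 0.65 ± 0.19 without it. Permuting the 5xFAD labels within each Lilrb4a genotype, which allows 1960 arrangements, gave a two-sided exact p of 0.00102, where 0.00051 is the smallest possible. None of the exact p-values given here is adjusted for the number of genes.

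C3ar1, the receptor of the complement fragment C3a (chr6:122847138-122856161, minus strand), was 6.11, 5.93, 6.17, 6.29 and 6.17 in 5EL and 5.76, 5.70 and 5.92 in EL. It was 6.41, 6.03, 5.96 and 6.26 in 5ELKO and 5.74, 5.76 and 5.92 in ELKO. All 9 libraries with 5xFAD were above all 6 without it, by a pooled difference of 0.35 ± 0.07 (exact permutation p = 0.00102). Such complete separation held for 5 of the genes tested in this direction (0.0316%) and for 1 in the other (0.00633%). The other 4 were below the fold threshold: the plasminogen activator Plat (0.18), the endosomal Toll-like receptor chaperone Unc93b1 (0.15), thromboxane synthase Tbxas1 (0.13) and the lysosomal peptide transporter Slc15a3 (0.25). Plat was 9.42 to 9.62 with 5xFAD and 9.24 to 9.42 without (separate before rounding), and Unc93b1 was 7.71 to 7.84 with it and 7.55 to 7.67 without. Plat, Unc93b1, Tbxas1 and further genes outside the naming rule were singled out after their values were seen.

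Of the astrocyte genes, Gfap (chr11:102887336-102900912, minus strand) had the largest pooled difference of the 121, 1.09 ± 0.23. Gfap was 11.49, 11.47, 11.06, 11.70 and 11.85 in 5EL against 10.36, 10.48 and 9.66 in EL, and 12.13, 10.83, 11.32 and 11.80 in 5ELKO against 11.23, 10.97 and 9.93 in ELKO. The groups with Lilrb4a did not overlap, and the knockout groups overlapped through the high values of ELKO replicates 1 and 2 and the low value of 5ELKO replicate 2. The difference was 1.35 ± 0.31 with Lilrb4a and 0.81 ± 0.32 without it, and the difference of these differences had a nominal p of 0.25 (limma interaction). Serpina3n, a secreted serine protease inhibitor with close paralogs in a gene cluster (chr12:104406729-104414329, plus strand), was higher by 0.85 ± 0.18. It lay between 8.07 and 9.36 with 5xFAD (median 8.92) and between 7.61 and 8.40 without (median 7.99), and 8 of 9 libraries exceeded all 6 others. On the reactive astrocyte list, 6 of 22 tested members were higher at nominal p and 0 were lower; beside Gfap, Serpina3n and C4b these were Osmr (0.19), Ggta1 (0.12) and Stat3 (0.13). On the homeostatic astrocyte list, 2 of 16 were higher, Slc1a3 (0.20), a glutamate transporter, and Agt (0.15). Without EL replicate 3, Slc1a3 differed by 0.11 and Agt by 0.10, with nominal p of 0.159 and 0.119 (limma), and leaving out 1 library lost the nominal p in 9 of 15 fits for Slc1a3 and in 8 for Agt. Meanwhile the median over the list was 0.001 and that over all genes -0.00044. Aqp4, the water channel of astrocyte endfeet, differed by 0.05 and Slc1a2, the main glutamate transporter, by 0.03.

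Microglial genes made up most of the remaining glial genes. Cst7 (chr2:150570415-150578944, plus strand) was 6.80, 5.68, 6.14, 6.59 and 6.59 in 5EL against 5.31, 5.38 and 5.34 in EL. It was 6.87, 5.58, 5.86 and 6.59 in 5ELKO against 5.73, 5.30 and 5.31 in ELKO, and its promoter held the PU.1 core shown above. 7 of the 9 libraries with 5xFAD were above all 6 others, and 5EL replicate 2 and 5ELKO replicate 2 lay below ELKO replicate 1. The pooled difference was 0.90 ± 0.19, made of 1.02 ± 0.27 with Lilrb4a and 0.78 ± 0.28 without it (exact permutation p = 0.00357). On the DAM list 19 of 35 tested members were higher at nominal p and 1 was lower; 12 and 1 also passed the fold. The lower member was Cox6a2, a subunit of cytochrome c oxidase in the mitochondrial respiratory chain, and it was highest in EL replicate 3 (9.16).

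**Figure D2:**
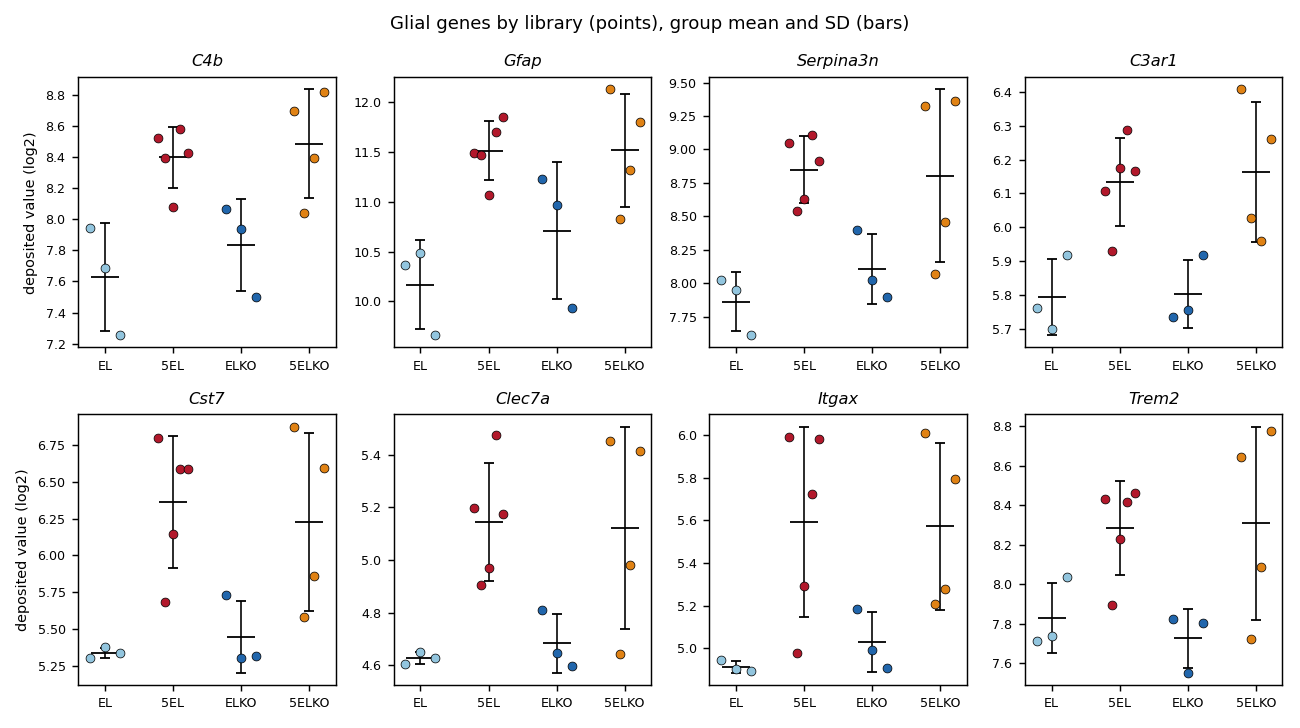
Points are the deposited log2 values of 8 genes in each library of the 4 groups, in replicate order from left to right; the long black bar is the group mean and the error bar the SD. In C3ar1 all 9 libraries with 5xFAD lie above all 6 without it, while in Cst7, Clec7a, Itgax and Trem2 the lowest libraries with 5xFAD reach the range of the others.

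The receptors of the DAM program were higher in both genotypes. Trem2 (chr17:48346401-48354147, plus strand) lay between 7.72 and 8.78 with 5xFAD (median 8.42) and between 7.55 and 8.04 without (median 7.77). Its pooled difference was 0.52 ± 0.14, with 0.46 ± 0.20 with Lilrb4a and 0.58 ± 0.21 without it. Tyrobp, its adaptor, was higher by 0.38 ± 0.13, and 6 of 9 libraries exceeded all 6 others. Clec7a, the beta-glucan receptor dectin-1, was 4.64 to 5.47 with 5xFAD and 4.60 to 4.81 without, a pooled difference of 0.48 ± 0.11. Itgax, the integrin subunit CD11c, was 4.98 to 6.01 with it and 4.89 to 5.18 without, a difference of 0.62 ± 0.15. In each of Clec7a and Itgax, 8 of 9 libraries were above all others, and the exception was 5ELKO replicate 2 for Clec7a and 5EL replicate 2 for Itgax. Both genes have low values, which the deposited transform draws together. Gpnmb, a lysosome-associated membrane glycoprotein, was higher by 0.38 ± 0.09 and Lpl, lipoprotein lipase, by 0.36 ± 0.10.

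Genes of the lysosome had 17 of 38 tested members higher at nominal p and 0 lower. Cd68, a lysosomal glycoprotein of phagocytes, was 6.63 to 7.42 with 5xFAD (median 7.20) and 6.42 to 6.69 without (median 6.61), a pooled difference of 0.48 ± 0.11. Ctsz was higher by 0.38 ± 0.09, Ctss by 0.32 ± 0.11 and Ctsd by 0.28 ± 0.09, all of them cathepsin proteases. Laptm5, a lysosomal membrane protein of immune cells, was higher by 0.38 ± 0.09. In Ctsd the value of 5ELKO replicate 2 (12.75) was at the bottom of all 15 libraries. The lysosomal list was not uniform: Grn, progranulin, differed by 0.25, but Lgmn by 0.08 and Npc1 by 0.10.

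Complement and Fc receptor genes completed this group. On the complement list 9 of 14 members were higher at nominal p and 0 lower. C1qa and C1qc, chains of C1q that lie next to each other on chromosome 4, were higher by 0.32 ± 0.11 and 0.29 ± 0.11, and Itgb2, the shared chain of the leukocyte integrins, by 0.27. On the Fc receptor and ITAM signaling list, the pathway that inhibitory receptors such as Lilrb4a oppose, 11 of 19 were higher and 0 lower. Fcgr2b, the inhibitory Fc receptor, was 6.04 to 6.67 with 5xFAD and 5.95 to 6.20 without, and its difference was 0.36 ± 0.14 with Lilrb4a and 0.32 ± 0.14 without it. Inpp5d, a phosphatase recruited by inhibitory receptors, was higher by 0.26 and Ptpn6, a phosphatase of the same kind, by 0.22. On the plaque-induced list, which overlaps most of the lists above, 38 of 57 were higher at nominal p and 0 lower, and the median over the list was 0.188.

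Of 20 homeostatic microglia genes, 7 were higher at nominal p and 0 lower, with a median of 0.084. By genotype, the list medians were 0.089 with Lilrb4a and 0.099 without it for this list, and 0.167 and 0.102 for DAM. Fcrls was 8.52 to 9.24 with 5xFAD and 8.31 to 8.63 without (0.44 ± 0.12). Csf1r, the growth factor receptor of microglia, was higher by 0.23 ± 0.06 and the fractalkine receptor Cx3cr1 by 0.20 ± 0.06, with 8 of 9 libraries above all 6 others in each. P2ry12 and Tmem119, which mark resting microglia, differed by 0.02 and 0.01, and Aif1, a general microglial marker, by 0.04. Outside the lists, the myeloid transcription factor Irf8 (0.28 ± 0.08) passed the nominal threshold. In bulk tissue, more cells of a type and more RNA per cell cannot be told apart. Markers of border and monocyte-derived macrophages had 0 of 7 tested members past a nominal p of 0.05, and the mean of the list was 5.36 to 5.74 with 5xFAD and 5.39 to 5.65 without. Of the T, B and NK lymphocyte list 1 of 15 members passed the filter, and of the neutrophil list 1 of 9 in the files.

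On the MHC class I list 8 of 14 members were higher at nominal p and 0 lower, and none of the 8 passed the fold of 1.2. The class I heavy chains H2-K1 and H2-D1, which have near-identical paralogs, differed by 0.15 ± 0.05 and 0.16 ± 0.07. Tap1 and Tap2, the peptide transporter, differed by 0.12 and 0.18. On the interferon-stimulated list 8 of 20 were higher and 0 lower, all below the fold threshold, with Irf7, a regulator of interferon genes, at 0.11. The other 6 class I and 12 interferon members had no nominal p under 0.05, and Irf7 itself lost it in 8 of the 15 fits that left out 1 library. The MHC class II list had 0 of 7 members at nominal p in either direction, although Cd74, the invariant chain, differed by 0.35 with Lilrb4a and 0.01 without it. Its highest values were in 5EL replicate 1 (6.14) and ELKO replicate 2 (5.95), the libraries with high choroid plexus values. The contrast of the genotypes in Cd74 thus leaned on these libraries.

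**Figure D3:**
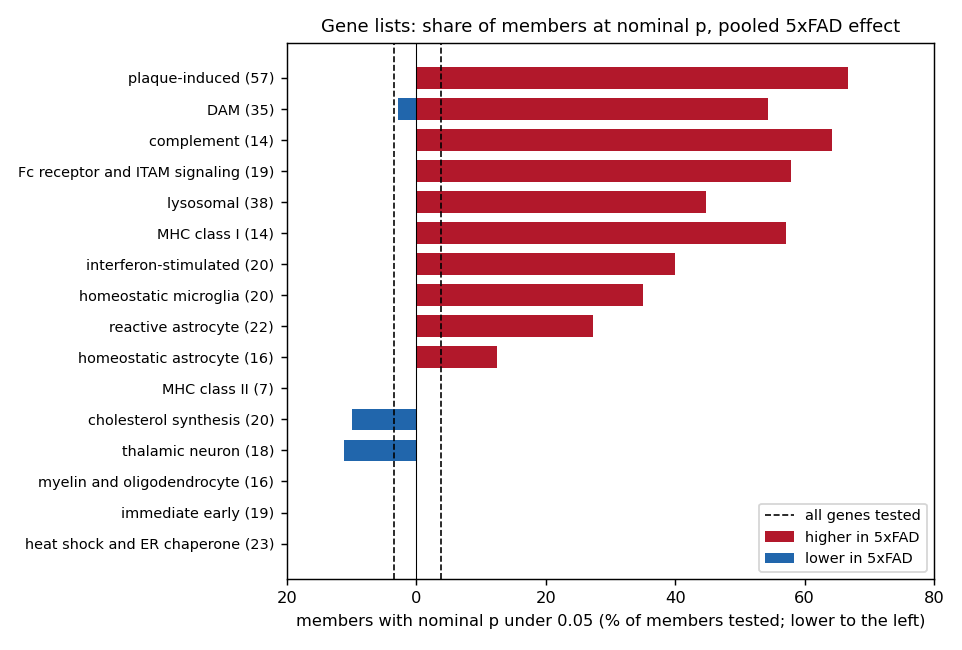
Bars give the percentage of tested members of each gene list (number tested in parentheses) with a nominal p under 0.05 for the pooled effect, higher with 5xFAD to the right and lower to the left; dashed lines mark the percentage over all 15804 genes. Plaque-induced, complement, Fc receptor, MHC class I and DAM lists extend furthest to the right, while myelin, immediate early and chaperone lists have no member at nominal p.

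Other cell programs showed few genes at nominal p. The myelin and oligodendrocyte (16), oligodendrocyte precursor (10), immediate early (19) and heat shock and ER chaperone (23) lists had 0 tested members at nominal p, and Mbp, a myelin protein gene, differed by 0.03 and Fos by 0.12. Of 14 genes reported for oligodendrocytes at plaques, 4 were higher, and these were Serpina3n, C4b, H2-D1 and H2-K1, which other glia also express. Of 25 tested Alzheimer risk genes 6 were higher and 0 lower, among them Trem2, Inpp5d, Plcg2 (0.14), Clu (0.13) and Spi1 (0.12). Abca1, the lipid exporter that loads apolipoprotein E, was higher by 0.30 and Cd14, a lipopolysaccharide co-receptor, by 0.32. The highest Abca1 value of all 15 libraries was in ELKO replicate 1 (10.77), a library without 5xFAD. In the other ELKO libraries Abca1 was 10.22 and 10.05, against 10.27 to 10.70 in 5ELKO. On the cholesterol synthesis list 0 of 20 were higher and 2 lower at nominal p: Msmo1 by -0.18 and Insig1, which holds the sterol sensor in the endoplasmic reticulum, by -0.17 ± 0.08. Leaving out 1 library lost the nominal p in 8 of 15 fits for Msmo1 and in 7 for Insig1.

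Among the 82 higher genes on none of the glial lists were genes of inhibitory neurons; no list of such genes was fixed, and those named here were picked after their values were seen. Gad1 and Gad2, the enzymes that make GABA, and Slc32a1, its vesicular transporter, were higher by 0.89 ± 0.39, 0.93 ± 0.33 and 0.81 ± 0.29. Gad2 was 10.01, 11.74, 10.91, 11.47 and 11.35 in 5EL against 10.84, 10.70 and 8.65 in EL, and 11.48, 10.99, 11.83 and 11.84 in 5ELKO against 11.16, 10.98 and 9.99 in ELKO. The low values were those of EL replicate 3, ELKO replicate 3 and 5EL replicate 1. With these aside, the 5EL libraries (lowest 10.91) lay just above the EL libraries (highest 10.84), and 5ELKO and ELKO overlapped. The forebrain interneuron factor Dlx1 was higher by 0.76 ± 0.17, Meis2 by 0.69 ± 0.27, and the neuropeptides somatostatin (Sst) and enkephalin (Penk) by 0.59 ± 0.26 and 0.48 ± 0.18. The exons of Slc32a1, Dlx1 and Penk overlap genes on the opposite strand. The counting did not use strand, so reads from the partners cannot be told apart. The same holds, among others, for the glial genes Ctsz, Fcgr2b, Csf1r, Cx3cr1, Ptpn6, Slc15a3 and Tbxas1. It also holds for Cox6a2, Stat3, Tap1, Tap2 and Irf7, named above, and for Ramp3, named below.

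The 82 genes also held transcription factors of forebrain neurons, neuronal receptors and genes of neither kind, and those named here were likewise chosen after their values were seen. Lhx6, which acts in interneuron development, was higher by 0.31 ± 0.12, Isl1 by 0.40 ± 0.14 and Ebf2 by 0.48 ± 0.12. Lhx6 was 4.32 to 5.32 with 5xFAD and 4.21 to 4.36 without, and Ebf2 was 4.84 to 5.85 with it and 4.79 to 5.19 without. Tbr1 and Eomes, factors of excitatory forebrain neurons and not of inhibitory ones, were higher by 0.38 ± 0.14 and 0.31 ± 0.13. With Lilrb4a, both stood out in 5EL replicate 2 alone. Eomes was 4.77 there, 3.78 to 3.84 in the other 5EL libraries and 3.78 to 3.82 in EL, near the filter. Tbr1 was 7.03 there, 5.91 to 6.22 in the other 5EL libraries and 5.73 to 6.12 in EL. Without Lilrb4a, Eomes was 3.92 to 4.52 in 5ELKO and 3.79 to 3.93 in ELKO. The cannabinoid receptor Cnr1 was higher by 0.54 ± 0.24, the kappa opioid receptor Oprk1 by 0.33 ± 0.15, the neuronal nitric oxide synthase Nos1 by 0.53 ± 0.22 and the serotonin receptor Htr1a by 0.45 ± 0.14. Cnr1 reached 7.86 in its lowest library without 5xFAD, against 9.60 in the lowest with it, while the highest values of the groups, 9.97 and 10.09, lay close together. The immune checkpoint receptor Lag3 (0.26 ± 0.08), the protease inhibitor A2m (0.32 ± 0.09) and the galectin ligand Lgals3bp (0.33 ± 0.13) were also among the 82.

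EL replicate 3 held the highest value of all 15 libraries in 12 of the 13 lower genes and the lowest value in 75 of the 82 higher genes outside the glial lists. At the other end of these 82 genes, 5EL replicate 2 held the highest value in 28 and 5ELKO replicate 3 in 24. Gpr149, an orphan receptor, was 6.20, 6.21, 6.24, 6.63 and 6.27 in 5EL against 6.64, 6.68 and 6.90 in EL, and 6.37, 6.28, 6.32 and 6.27 in 5ELKO against 6.36, 6.42 and 6.60 in ELKO. Its pooled difference was -0.29 ± 0.07, and 7 of 9 libraries were below all 6 others (exact permutation p = 0.00102). The difference was -0.43 ± 0.09 with Lilrb4a and -0.15 ± 0.10 without it. Hsd11b1, which regenerates active glucocorticoid, was lower by -0.28 ± 0.09, Nexn, an actin-binding protein, by -0.28 ± 0.10, Cox6a2 by -0.27 ± 0.09 and Xylt2, a xylosyltransferase of proteoglycan synthesis, by -0.27 ± 0.09. The receptor accessory protein Ramp3, a marker on the thalamic neuron list, was 12.50 in EL replicate 3 and 11.99 in ELKO replicate 3 and between 11.34 and 11.80 in the other 13. Pcp4, a calmodulin regulator of thalamic and other neurons, was 12.61 and 11.68 in these 2 libraries and 10.73 to 11.64 in the rest. On the thalamic neuron list 0 of 18 members were higher at nominal p and 2 lower, with a median of -0.134. The pooled difference was above 0 for 10 of 10 tested habenula and 11 of 11 tested ependymal markers and below 0 for 6 of 6 erythroid ones, with 0 of each list at nominal p. The sign was the same in both Lilrb4a genotypes for all 11 ependymal markers, but for only 1 habenula and 1 erythroid marker. The habenula median was 0.543 with Lilrb4a and -0.074 without it, and the erythroid median -0.139 and 0.063. The part of these lists in the results was not tested. Whether the tissue taken differed between these libraries and the rest was not tested.

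**Figure D4:**
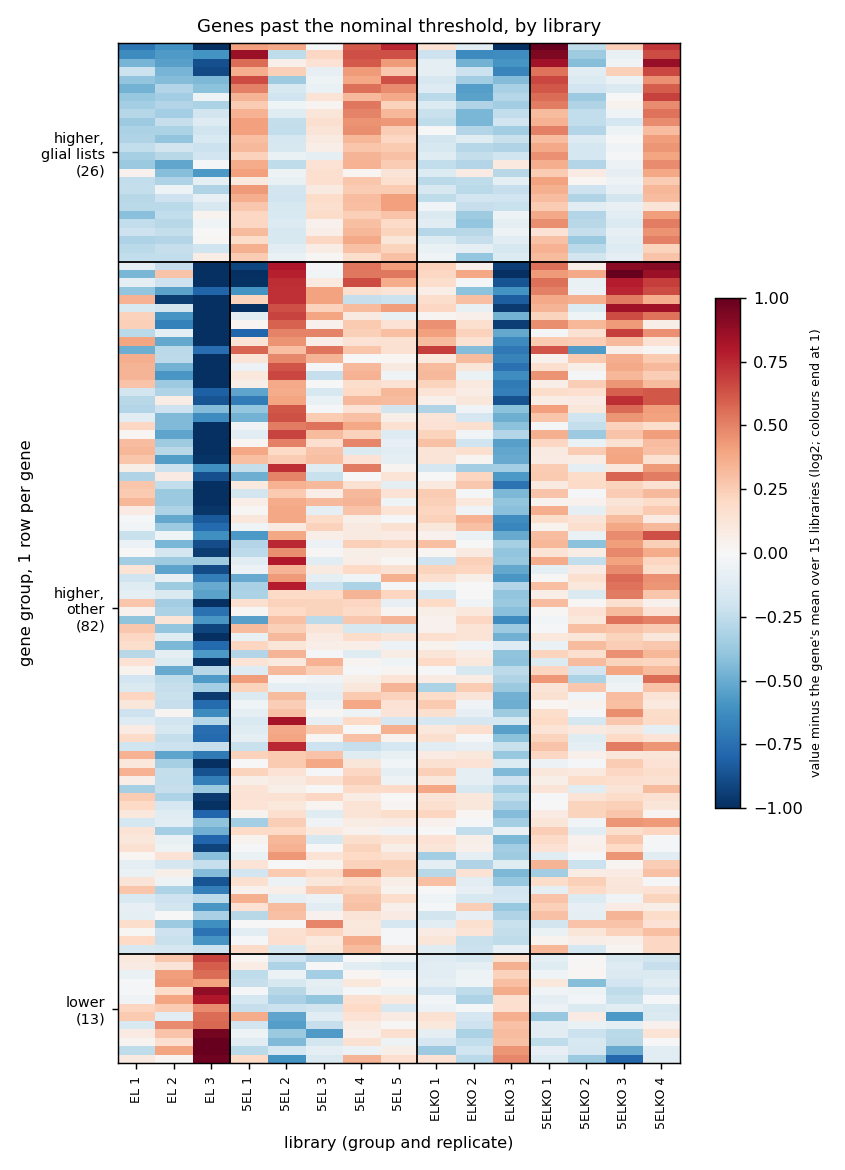
Each row is 1 of the 121 genes past the nominal threshold and each column a library; colors give the log2 value minus the gene's mean over the 15 libraries, and black lines separate the 26 higher genes on the glial lists, the 82 other higher genes, the 13 lower genes and the 4 groups. The glial rows are low in most libraries without 5xFAD and in 5EL 2 and 5ELKO 2, whereas the other higher rows are lowest in EL 3 and ELKO 3, where the lower rows are highest.

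The glial and the other genes therefore ranked the libraries differently. The mean of Gad1, Gad2 and Slc32a1 was 8.21 in EL replicate 3, 9.28 in ELKO replicate 3 and 9.2 in 5EL replicate 1, and 10.1 to 11.2 in the other 12. Among the 26 glial genes the highest of the 6 libraries without 5xFAD was ELKO replicate 1 for 12 genes and EL replicate 3 for 10. The lowest of the 9 libraries with 5xFAD was 5ELKO replicate 2 for 21 of the 26 and 5EL replicate 2 for 4. Among the 82 other genes the lowest was 5EL replicate 1 for 34, and EL replicate 3 was the highest control for 0. The mean over the plaque-induced list without Apoe was 9.29 to 9.38 in the 6 libraries without 5xFAD. In those with it, it was 9.33 in 5ELKO replicate 2, 9.41 in 5EL replicate 2 and 9.45 to 9.77 in the other 7.

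Leaving out EL replicate 3 and ELKO replicate 3, an alternative chosen after seeing the data, gave 38 higher and 2 lower genes past the nominal threshold, of which 31 and 0 were among the 108 and 13, so none of the 13 lower genes stayed past it. Of the 26 glial genes 25 were still past it, with a median pooled difference of 0.41 against 0.38 before. Of the 82 others 6 were still past it, and their median went from 0.36 to 0.17, although all 82 remained above 0. Among them, Cnr1 then differed by 0.08 and Nos1 by 0.14, and Lag3, at 0.27, kept its value. Gad2 then differed by 0.39 and Gad1 by 0.27, but Dlx1 still by 0.64. Of the glial genes, Cst7 differed by 0.87, Trem2 by 0.59, C3ar1 by 0.41, C4b by 0.54 and Gfap by 0.77. Of the lower genes, Ramp3 then differed by -0.04, Pcp4 by -0.06 and Gpr149 by -0.22. With the mean of Gad1, Gad2 and Slc32a1 as a covariate, all 26 glial genes were still past the threshold. That covariate was built from 3 of the 82 others, so what it did to the 82 is no separate result.

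**Figure D5:**
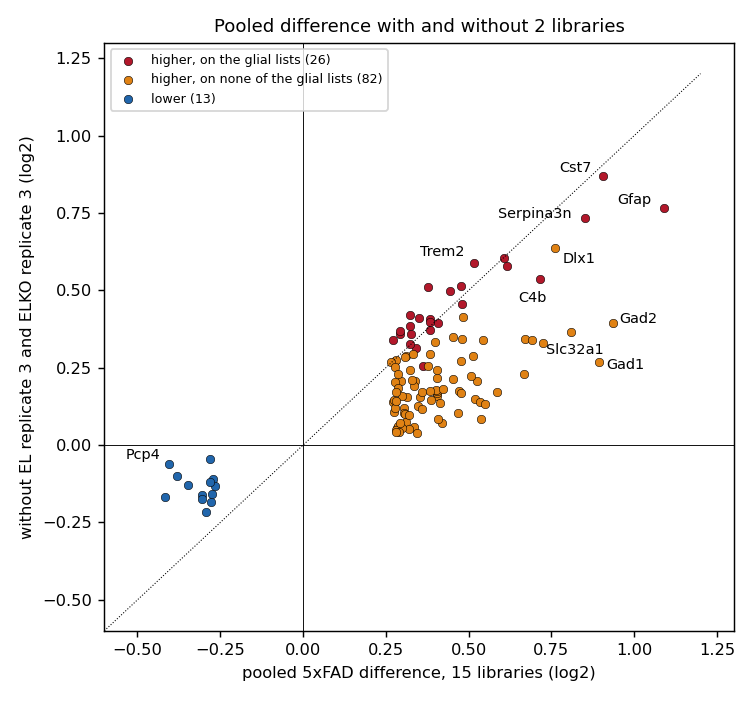
Each point is 1 of the 121 genes past the nominal threshold, placed by its pooled 5xFAD difference over 15 libraries (x axis, log2) and over the 13 libraries left without EL replicate 3 and ELKO replicate 3 (y axis, log2); the dotted line marks equal values. Most red glial genes stay near the line, with Gfap and C4b below it, and most orange genes and all blue genes lie nearer to 0 on the y axis.

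Without ELKO replicate 1, the library with high mouse Apoe, the glial values were close to those above, with 0.77 for C4b, 1.23 for Gfap, 0.98 for Cst7 and 0.53 for Trem2. The count past the nominal threshold went to 207 higher and 34 lower genes, of which 103 and 12 were among the 108 and 13. Apoe itself, -0.68 ± 0.56 over 15 libraries, differed by 0.09 without it. Without 5EL replicate 1 and ELKO replicate 2, the libraries with high choroid plexus values, 188 genes were higher and 44 lower, and 98 and 12 of these were shared.

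The comparisons within each Lilrb4a genotype were set side by side to see which genes differed in both. They share no library, but EL and ELKO libraries of 1 replicate number deviated from their group means together (correlations over genes of 0.453, 0.325 and 0.742), so their controls were not independent. With Lilrb4a, 604 genes were higher at nominal p (3.82%) and 613 lower (3.88%), and without it 234 were higher (1.48%) and 141 lower (0.892%). No gene passed an adjusted p of 0.05 in either (limma; smallest adjusted p 0.630 and 0.999). The 49 genes higher in both (0.31% of the genes tested) were 20.9% of the 234 and 8.11% of the 604. Only 3 genes were lower in both (0.019%), 2.13% of the 141 and 0.489% of the 613; they were 1700123M08Rik (pooled difference -0.18), the acyltransferase gene Mogat1 (-0.11) and Jkamp (-0.15), all with exons that overlap a gene on the opposite strand. Of the 108 genes past the pooled threshold, 22 were at nominal p in both genotypes, 59 with Lilrb4a alone, 7 without it alone and 20 in neither. The 22 were mostly glial and included C4b, C3ar1, Gfap, Serpina3n, Cst7, Ctsz, Clec7a, Cd68, Laptm5, Mpeg1, Gpnmb, Itgax, Trem2, Fcrls, Fcgr2b and A2m, with Dlx1, Npffr1, Gm14204, Eepd1 and Htr1a beside them. Mpeg1, a pore-forming protein of macrophages, differed by 0.65 ± 0.21 with Lilrb4a and by 0.56 ± 0.22 without it.

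The 26 glial genes had a median difference of 0.444 with Lilrb4a and 0.347 without it, and 22 of them were larger with Lilrb4a. That order rested on 1 library: without 5ELKO replicate 2 the knockout median was 0.467, and 11 of the 26 were larger with Lilrb4a. For the 82 other genes the medians were 0.435 and 0.280, with 65 larger with Lilrb4a, and without EL replicate 3 they were 0.217 and 0.280, with 23 larger. For the 13 lower genes the medians were -0.443 with Lilrb4a and -0.134 without it, and 0 of them were at nominal p in both genotypes. Without ELKO replicate 3 their knockout median was 0.004. The difference between genotypes had a nominal p under 0.05 for 432 genes (2.73%, limma interaction) and for 1 of the 121. That gene was Xylt2, which differed by -0.46 ± 0.11 with Lilrb4a and by -0.06 ± 0.12 without it. In EL replicate 3 it was 11.24, and it lay between 10.28 and 10.84 in the other 14. No interaction passed an adjusted p of 0.05 (smallest adjusted p 0.9996), so the comparison does not show a gene whose 5xFAD difference depended on Lilrb4a, nor that the differences were equal.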

How the data were processed

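The authors trimmed the reads with Trimmomatic 0.39, aligned them with HISAT2 2.2.1 to GRCm38 and counted read pairs per gene without strand with featureCounts 2.0.3, per the submitters' notes and the study's methods, which also name DESeq2 1.38.3. The authors deposited log2 values for 29659 genes per library. The transform is not given in the sources used here, and genes with low values vary little (median within-group SD 0.00372 below a mean of 0, 0.113 at means of 6 to 8), so fold changes of low genes are understated. Counts were not used here, so the number of reads behind each value is unknown. The paper gives total reads, mapping rates and RNA integrity for samples of the 5EL and 5ELKO groups, but none for EL or ELKO. It lists more 5ELKO samples than the series holds, and its samples were not matched to the libraries here. The part of read depth and RNA integrity in the results was not tested.

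Groups came from the sample labels. Genes at 3.32 or more in at least 3 of 15 libraries were fitted in limma 3.58.1 (R 4.3.3; lmFit, eBayes with a trend) with amyloid and Lilrb4a genotype as factors. A model with 4 group means gave the differences within genotypes and the interaction, with Benjamini-Hochberg adjustment over 15804 genes. Single genes were also tested by two-sided exact permutation within genotype. The methods say that sequenced samples were drawn at random from mice; where libraries did not come from separate animals, p-values measure only the spread between libraries. On simulated data, the fit recovered 91.5% of 200 genes changed by 0.5 (log2) and 99.5% of those changed by 1, and made 0 calls without change. False calls made up 4.19% of the calls at 0.5 and 7.44% at 1. The simulation drew normal noise for each gene separately, whereas libraries here deviated together over many genes. Its recovery therefore does not carry over to these data, and the lack of called genes does not show that such differences were absent. Coordinates are from GENCODE M21 (15285 of the tested symbols matched) and promoters from RefSeq.

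The members, the 41 gene lists and the tests were chosen with earlier results of these data known. Genes were named by a rule: the targeted and transgene-related genes, the 5 higher and 5 lower genes with the smallest p past the nominal threshold (no gene passed the adjusted one), and the 4 members of each pathway list with the smallest p (85 genes); others were named after their values were seen, and some genes are not reported here. Same-numbered libraries did not deviate together across 5xFAD status, so no replicate block was used, although EL and ELKO libraries of 1 number did; the fits and permutations treat all libraries as independent. Alternatives were other filters, variance priors and scalings, covariates, a replicate block and leaving out libraries.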

Additional observations from a re-analysis of the deposited data

Results flagged for a closer look

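Over 228 sets of values, each of 1 gene in 5EL or 5ELKO, 8 held a library that lay far from the others of its group by Dixon's criterion, and chance alone gives about 1 in 20. The gap to the nearest library was the following share of the group's range. In the 5EL group it was 0.836 for Gpr149 (replicate 4, the highest at 6.63), 0.768 for C1qa (replicate 2, the lowest at 9.31), 0.798 for Sst (replicate 1, the lowest at 8.25), 0.761 for Meis2 (replicate 1, the lowest at 6.77) and 0.751 for Lrrc1 (replicate 3, the highest at 8.43). In the 5ELKO group it was 0.829 for Penk (replicate 2, the lowest at 7.11), 0.892 for Insig1 (replicate 1, the lowest at 10.72) and 0.877 for Pmvk (replicate 4, the lowest at 9.65). Lrrc1, a scaffold protein of cell polarity, was higher by 0.20 in the pooled comparison.

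The difference of the 5xFAD difference between Lilrb4a genotypes had a nominal p under 0.05 (limma interaction) for 4 of the 113 named genes tested in this way, beside 2.73% of all genes tested, and an adjusted p under 0.05 for 0. The difference without Lilrb4a minus that with it was 0.396 for Xylt2, 0.256 for the cytokine Il18, -0.392 for the immediate early gene Junb and -0.396 for the glucocorticoid-responsive Hif3a. Il18 was 7.83, 7.91, 7.95, 7.79 and 7.82 in 5EL against 8.01, 8.14 and 8.25 in EL, and 7.89, 7.91, 7.94 and 7.93 in 5ELKO against 7.84, 7.93 and 8.05 in ELKO.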

How the results depend on the processing

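In every alternative run, 0 genes passed an adjusted p of 0.05 in either direction, with a smallest adjusted p of 0.0643 without 5ELKO replicate 2; at an unadjusted p under 0.05 the main comparison held 1141 genes. The counts past the nominal threshold, 108 higher and 13 lower, depended on the libraries. Leaving out 1 library at a time gave 56 to 290 higher and 2 to 57 lower genes: 56 and 2 without EL replicate 3, 61 and 2 without ELKO replicate 3, 290 and 57 without EL replicate 1, 207 and 34 without ELKO replicate 1, and 179 and 43 without ELKO replicate 2. Lower counts were also 3, 5, 24, 20 and 7 without 5EL replicates 2 and 3 and 5ELKO replicates 1, 2 and 3. The counts were 188 and 44 without both libraries with high choroid plexus values, 498 and 151 without EL replicate 1 and ELKO replicate 1 together, 38 and 2 without EL replicate 3 and ELKO replicate 3 together, and 39 and 25 with the mean of Gad1, Gad2 and Slc32a1 as a covariate. The latter covariate and the pair of replicates 3 were chosen after seeing the data. With Xist as a covariate 7 were lower. Xist was 0.31 in 5ELKO replicate 3 and 0.17 to 0.19 in all other libraries, so this covariate mostly marked that library and not sex. A replicate block gave 118 higher and 23 lower genes, 65 and 11 of them shared, and 18 of the 26 glial genes and 47 of the 82 others were past the threshold in it; the numbers did not pair the libraries across 5xFAD status, with correlations of deviations of 0.054, 0.228 and 0.189 between 5EL and EL and 0.214, 0.025 and -0.32 between 5ELKO and ELKO, and 5 of 15 libraries correlated best with their own number. EL and ELKO libraries of 1 number did deviate together (0.453, 0.325 and 0.742). The cause of these changes was not tested.

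With the Gad1, Gad2 and Slc32a1 covariate the sign turned for App (-0.0054), Thy1 (0.0184), Gjb6 (0.0196), Arc (-0.0153), Sst (-0.0561), Tac1 (-0.0743) and Pmvk (0.0071). Without both replicates 3 it turned for App (-0.0213), Thy1 (0.0263) and Gjb6 (0.0084). App was -0.00045 without the libraries with high choroid plexus values. Leaving out 1 library gave -0.0049 to 0.0373 for App and -0.943 to 0.0867 for Apoe, the latter without ELKO replicate 1, and Apoe was 0.051 without EL replicate 1 as well. C4b, C3ar1, Gfap, Serpina3n and Cst7 kept their direction and a nominal p under 0.05 in every alternative run. Dlx1, an inhibitory neuron gene, did so as well.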
